A study of Mus musculus with 6 samples.

Results

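Calponins, transgelins and tropomyosins are small proteins that bind along actin filaments. The 10 mouse genes of these families, Cnn1 to Cnn3, Tagln, Tagln2, Tagln3 and Tpm1 to Tpm4, were followed in haematopoietic stem cells (HSCs), 10 of the 22180 genes with a value. The families were chosen by the measured difference between genotypes, since Cnn3 and Tpm4 read higher in the knockout, so that difference is given for the members as a description, without a test. HSCs came from the marrow of mice at steady state and were sorted as cells without lineage markers that carry Sca1 and Kit and lack Flt3 at the surface. Chrm1-/- mice, which lack a muscarinic acetylcholine receptor gene, gave 3 arrays, and WT mice gave 3 arrays. The strain of both is labelled C57Bl/6, age and sex are not given, and the labels do not say whether an array holds 1 mouse or a pool, or whether replicates are separate mice. Each array holds 1 log2 signal per transcript cluster, the set of probes that the array design assigns to one transcribed locus.

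Calponins and transgelins share a calponin homology domain and calponin repeats, and they stabilise or bundle actin filaments. Tropomyosins are coiled coils that polymerise end to end along the filament and control which myosins and which severing proteins can reach it. Cnn1 and Tagln are classical smooth muscle genes, while Cnn2, Cnn3, Tagln2, Tpm3 and Tpm4 are made in many non-muscle cells. Each tropomyosin gene gives several isoforms by alternative promoters and splicing, which 1 value per transcript cluster cannot separate. Many smooth muscle genes of these families are driven by serum response factor (SRF) through a DNA element named the CArG box.

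Promoters of 9 of the 10 genes, all but Tagln, were read from the RefSeq table of GRCm38.p6, and the 250 bases before the annotated start were searched on both strands for 4 motifs. Those of Cnn3 and Tpm4 are shown because these genes set the choice of the families, and that of Cnn2 because it was the one of these 9 promoters with a CArG box. Capitals mark the CArG box and the GC box (GGGCGG or its reverse complement, CCGCCC). Cnn3 lies on the plus strand at chr3:121426291-121426540, Tpm4 on the plus strand at chr8:72135038-72135287 and Cnn2 on the plus strand at chr10:79988350-79988599, each read 5′ to 3′ and ending at the base before the start.
Cnn3: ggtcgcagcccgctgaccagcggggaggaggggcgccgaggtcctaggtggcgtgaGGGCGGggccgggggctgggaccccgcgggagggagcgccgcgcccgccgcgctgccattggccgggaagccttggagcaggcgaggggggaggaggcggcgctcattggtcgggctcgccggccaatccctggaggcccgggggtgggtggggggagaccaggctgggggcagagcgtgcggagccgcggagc
Tpm4: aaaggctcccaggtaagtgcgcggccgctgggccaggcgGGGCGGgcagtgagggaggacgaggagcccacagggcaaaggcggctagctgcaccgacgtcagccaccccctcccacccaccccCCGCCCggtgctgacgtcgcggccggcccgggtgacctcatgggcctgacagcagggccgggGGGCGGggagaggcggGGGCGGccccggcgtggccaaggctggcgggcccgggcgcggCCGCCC
Cnn2: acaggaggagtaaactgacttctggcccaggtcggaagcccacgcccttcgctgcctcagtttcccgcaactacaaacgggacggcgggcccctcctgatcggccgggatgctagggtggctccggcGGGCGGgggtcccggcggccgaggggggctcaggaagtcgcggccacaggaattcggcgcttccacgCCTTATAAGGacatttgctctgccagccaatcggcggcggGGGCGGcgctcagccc
The Cnn3 and Tpm4 promoters had the same G and C content, 78.8%, the highest of the member promoters, where the median of all 32851 promoter windows was 52.4%. Tpm4 held 5 GC boxes, Cnn3 held 1 and Cnn2 held 2. Of the 10 member windows, Tpm3 having 2 starts, 7 held a GC box, against 32.7% of all windows, and 2, those of Tagln2 and Tpm1, held an MCAT element (CATTCC), against 12.6%. The CArG box was in 1 of the 10 member windows and in 1.47% of all windows, with 46 bases between it and the Cnn2 start. The TATA box (TATAAA) was in 0 of the 10 and in 12.4% of all. Neither the Cnn3 nor the Tpm4 window held a CArG box, MCAT element or TATA box in these letters. Each motif was counted on its own, since matches may share bases, and in the member windows no matches of different motifs overlapped.

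The arrays as a whole set the scale for what follows. Array medians lay between 6.49 and 6.57. WT replicate 3 had the lowest mean Pearson correlation with its own group, 0.918, where the other arrays had 0.925 to 0.926. The arrays did not group by genotype. All but Chrm1-/- replicate 3 had a higher mean correlation with the other genotype, 0.9225 to 0.9288, than with their own. Chrm1-/- replicate 3 had 0.9254 with its own group and 0.9248 with the other. The brighter of 2 Chrm1 clusters read 8.16, 7.52 and 7.58 on the Chrm1-/- arrays and 7.45, 7.44 and 7.67 on the WT arrays. The sources used here do not say which part of Chrm1 its probes cover, and this checks nothing about the labels. Kit averaged 10.88 ± 0.10 on Chrm1-/- arrays and 10.90 ± 0.05 on WT arrays (SD, n = 3 each), and Cd34, a surface gene of early blood cells, 11.30 ± 0.07 on Chrm1-/- arrays and 11.24 ± 0.08 on WT arrays (SD, n = 3 each). Across the 11094 genes bright enough to be tested (mean signal no lower than 6.77, the median gene), 0 passed an adjusted p of 0.05 in limma (0.00%), 1 did so without moderation, and 332 had an unadjusted p under 0.05 (2.99%).

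The members' differences went in both directions. Of the 10 members 5 had a higher and 5 a lower mean signal in Chrm1-/-, where 52.8% of all genes were higher. Their median log2 difference was 0.01, the same as the median over all genes, 0.01. Cnn3 and Tpm4 were the 2 members whose groups did not overlap, and 5.39% of all genes had groups that did not overlap. Because that contrast chose the members, nothing is read from these shares. Of the members 7 were bright enough to enter the fit across all genes. The other 8 members had a median difference of -0.05, with 3 higher and 5 lower. In sorted cells measured in bulk, fewer cells that express a gene and less RNA per cell cannot be told apart.

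**Figure D1:**
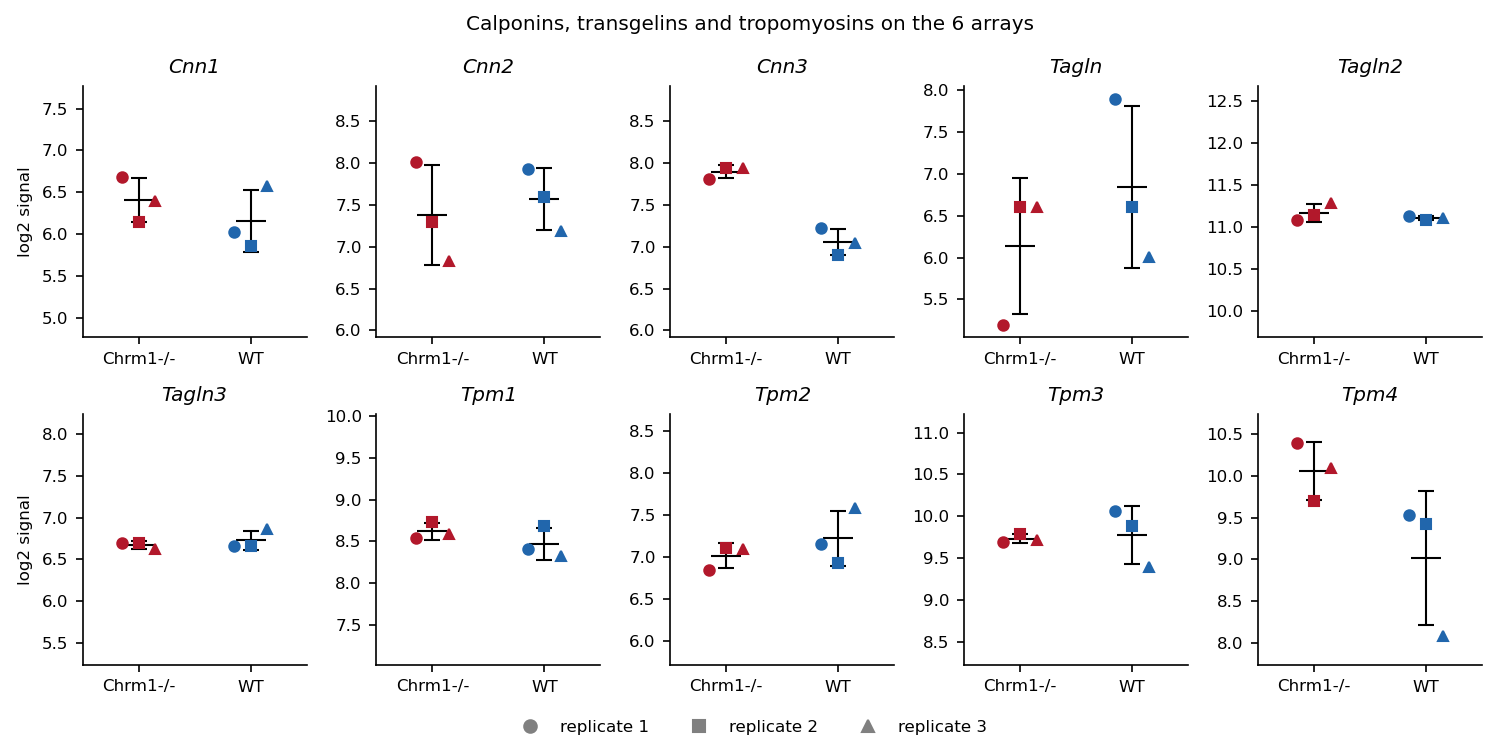
Log2 signal of each gene on the 3 Chrm1-/- arrays (left, red) and the 3 WT arrays (right, blue); marker shapes give the replicate number, the horizontal mark the mean and the bars 1 SD, and every panel spans the same range of log2 units. Cnn3 and Tpm4 are the panels without overlap, and in Tpm4 WT replicate 3 lies at 8.09, well under the other WT arrays.

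Among the calponins, Cnn3, the acidic calponin of non-muscle cells, separated the genotypes most evenly. It read 7.81, 7.94 and 7.94 on the Chrm1-/- arrays, against 7.22, 6.90 and 7.05 on the WT arrays. All 3 Chrm1-/- arrays lay above all 3 WT arrays, and the spread inside each genotype was small. The means were 7.90 ± 0.08 in Chrm1-/- and 7.06 ± 0.16 in WT (SD, n = 3 each), a log2 difference of 0.84 ± 0.12 (SE), or 1.79-fold. The pooled SD within genotypes was 0.125, and 20.3% of tested genes had one as small. Of the tested genes 75 (0.676%) had a difference at least as high, and 27 of those had groups that did not overlap. The Cnn3 difference helped to choose the families, so its place among the tested genes is not a test. With any single array left out the Cnn3 difference stayed between 0.76 and 0.92. Cnn3 had 1 cluster, number 17402155, so no further cluster can be set beside it.

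The other calponins did not share that pattern. Cnn2, the calponin of blood and other motile cells, read 8.01, 7.29 and 6.83 on Chrm1-/- arrays and 7.93, 7.60 and 7.19 on WT arrays. Both groups covered about the same range and its difference was -0.20 ± 0.34 (SE), which turned to 0.08 without Chrm1-/- replicate 3. Cnn1, the smooth muscle calponin, read 6.68, 6.15 and 6.40 on Chrm1-/- arrays and 6.03, 5.86 and 6.57 on WT arrays, with a difference of 0.26. Its groups overlapped through WT replicate 3, and without that array the difference was 0.47. Cnn1 lay below the signal needed for testing, as did Tagln and Tagln3. RefSeq lists pseudogenes of Cnn2 and of Tpm3, and whether the probes of these genes also read their copies was not tested.

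In the brighter cluster of each gene, Tagln2 had the narrowest and Tagln the widest range over the arrays of the 10 members. Tagln2, the transgelin of leukocytes, read 11.08, 11.14 and 11.29 on Chrm1-/- arrays and 11.13, 11.08 and 11.11 on WT arrays. Its values covered 0.21 log2 units over the 6 arrays, the difference was 0.06 ± 0.11 (SE), and 7.88% of tested genes had a pooled SD as small as its 0.079. Tagln, the smooth muscle transgelin also called SM22, read 5.20, 6.61 and 6.60 on Chrm1-/- arrays and 7.90, 6.61 and 6.01 on WT arrays. Its values covered 2.70 log2 units with overlapping groups, and 1.49% of all genes had a pooled SD as large as its 0.892. The Tagln difference of -0.70 was -0.17 without WT replicate 1 and -1.12 without WT replicate 3, so single arrays set its size. Tagln3, the transgelin of neurons, read 6.70, 6.70 and 6.62 on Chrm1-/- arrays and 6.66, 6.66 and 6.86 on WT arrays, a difference of -0.05.

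Among the tropomyosins Tpm4 had the largest difference of all 10 members, and it leaned on 1 array and 1 cluster. Tpm4 encodes a short tropomyosin of non-muscle cells that megakaryocytes use to make platelets. Its brighter cluster, number 17548023, read 10.39, 9.70 and 10.09 on Chrm1-/- arrays and 9.53, 9.42 and 8.09 on WT arrays. The lowest Chrm1-/- array lay 0.17 above the highest WT array, and WT replicate 3 lay far below the rest. The means were 10.06 ± 0.35 in Chrm1-/- and 9.01 ± 0.80 in WT (SD, n = 3 each), a log2 difference of 1.05 ± 0.42 (SE), or 2.07-fold. Without WT replicate 3 the difference was 0.59. The pooled SD of 0.617 was reached by 6.35% of tested genes, and 40 tested genes (0.361%) had a difference at least as high. The Tpm4 difference also helped to choose the families, so its place carries no test.

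The second Tpm4 cluster, number 17502378, did not show the difference. It read 9.20, 9.02 and 8.54 on Chrm1-/- arrays and 8.83, 8.87 and 8.88 on WT arrays. Here the Chrm1-/- arrays lay on both sides of the WT arrays, WT replicate 3 was not low, and the difference was 0.06. The mean of both clusters differed by 0.55. The gap of 0.99 between the differences of the 2 clusters was reached by 4.16% of the 1082 genes that have several clusters, whose median gap was 0.17. Which exons or isoforms each cluster covers is not given in the sources used here, and its part in the gap was not tested.

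**Figure D2:**
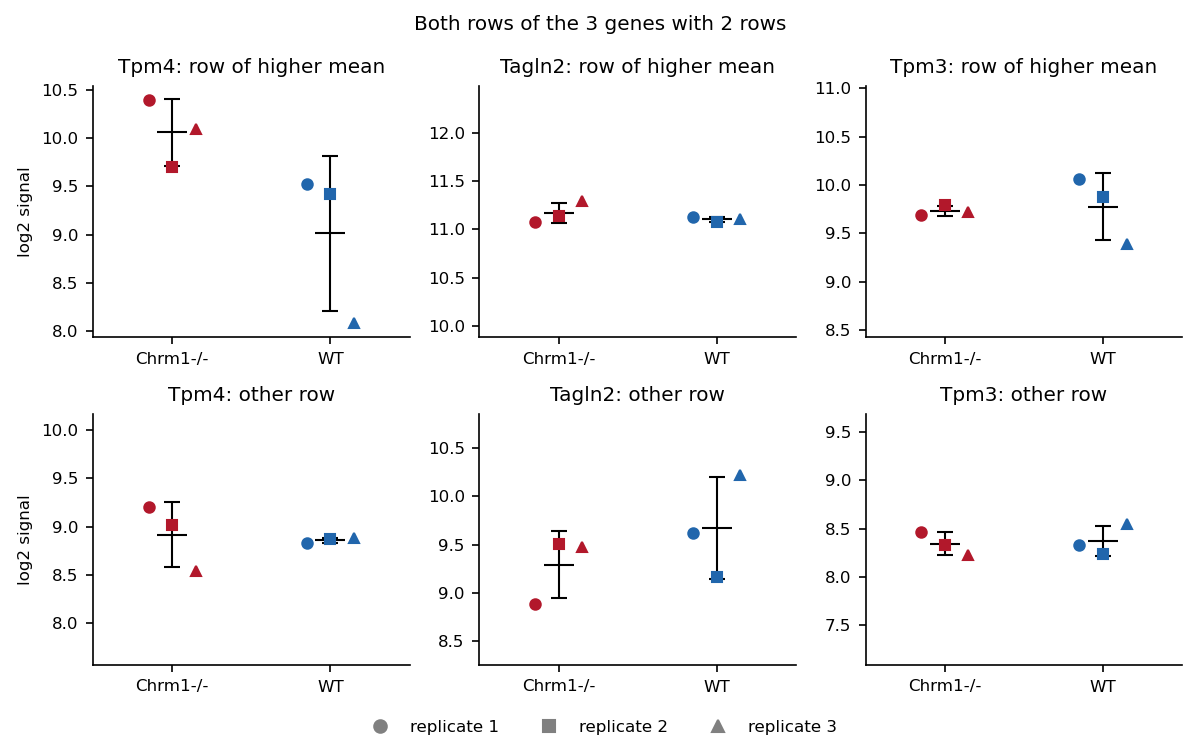
Log2 signal on the Chrm1-/- arrays (left, red) and WT arrays (right, blue) for both transcript clusters (rows of the value table) of Tpm4, Tagln2 and Tpm3, the brighter above and the other below; horizontal marks are means, bars 1 SD, and every panel spans the same range of log2 units. The Tpm4 difference of 1.05 in the upper panel stands beside 0.06 in the lower one, and WT replicate 3 is the low WT point above but not below.

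Tagln2 and Tpm3 also had 2 clusters each. The other Tagln2 cluster read 8.89, 9.51 and 9.48 on Chrm1-/- arrays and 9.62, 9.17 and 10.22 on WT arrays, with a difference of -0.38 and a wider spread than the brighter one. The groups overlapped, and WT replicate 3 was the highest array here. A gap between clusters as wide as the 0.44 of Tagln2 was found in 16.8% of the genes with several clusters. Tpm3, which gives the main short tropomyosin of many non-muscle cells, read 9.69, 9.79 and 9.72 on Chrm1-/- arrays and 10.06, 9.88 and 9.39 on WT arrays in its brighter cluster. The difference was -0.04 ± 0.19 (SE) there and -0.03 in the other cluster, so the 2 clusters gave nearly the same value.

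Tpm1 and Tpm2, best known from striated and smooth muscle, lay within the spread between arrays. Tpm1 read 8.54, 8.73 and 8.59 on Chrm1-/- arrays and 8.41, 8.69 and 8.32 on WT arrays, a difference of 0.15 ± 0.14 (SE). Tpm2 read 6.84, 7.11 and 7.09 on Chrm1-/- arrays and 7.15, 6.93 and 7.58 on WT arrays, a difference of -0.21 ± 0.19 (SE) that was -0.03 without WT replicate 3. Both pairs of groups overlapped.

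Chrm1-/- replicate 1 and WT replicate 3 were most often the lowest or highest of the 6 arrays for a member. Chrm1-/- replicate 1 was lowest for 3 members, Tagln, Tpm2 and, level with WT replicate 2, Tagln2, and highest for 3, Cnn1, Cnn2 and Tpm4. WT replicate 3 was lowest for 3 members, Tpm1, Tpm3 and Tpm4, and highest for 2, Tagln3 and Tpm2. Over all tested genes Chrm1-/- replicate 1 was lowest for 20.7% and highest for 16.3%, and WT replicate 3 was lowest for 19.4% and highest for 18.0%. Ties went to the earlier array. The shares of Chrm1-/- replicate 1 thus count every tie it had and those of WT replicate 3 count none, so they are not strictly comparable. The mean log2 signal of the 10 members was 8.09, 8.12 and 8.12 on Chrm1-/- arrays and 8.20, 7.96 and 7.82 on WT arrays. The groups overlapped through WT replicate 1, and the Chrm1-/- arrays lay close together. Both rested on Tagln, below the signal needed for testing, which read 5.20 on Chrm1-/- replicate 1 and 7.90 on WT replicate 1. Without Tagln the group means of the arrays did not overlap, but they hold Cnn3 and Tpm4, which chose the families.

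**Figure D3:**
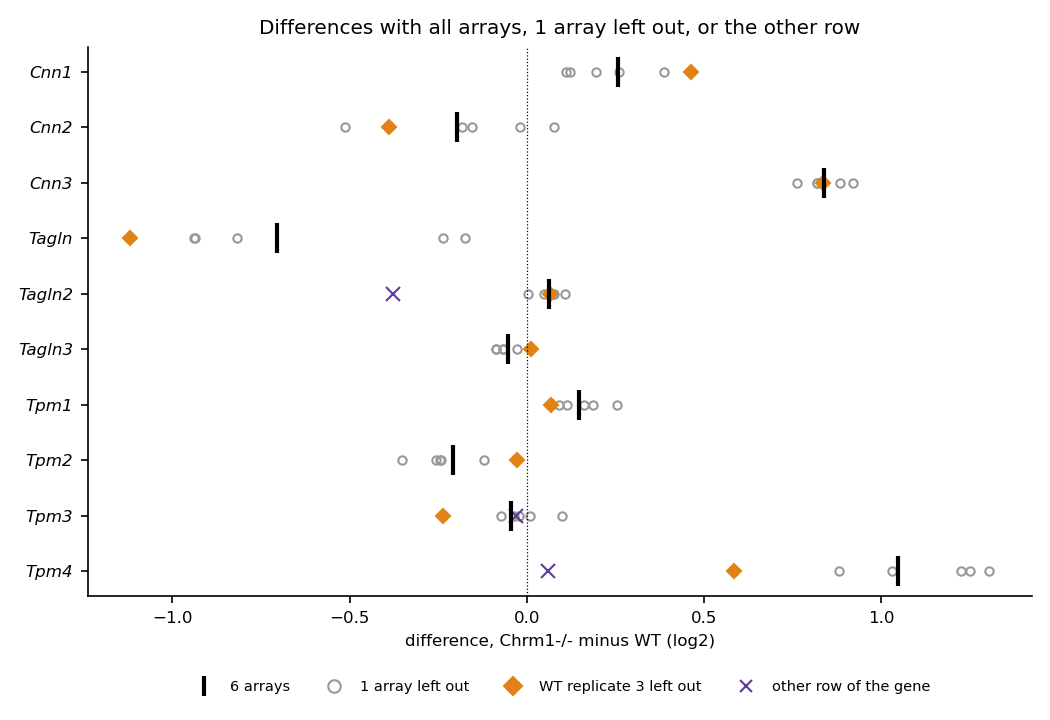
Log2 difference, Chrm1-/- minus WT, of each gene with all 6 arrays (black bar), with 1 array left out (open circles), with WT replicate 3 left out (orange diamonds) and in the other cluster (row) of the 3 genes that have one (crosses). Cnn3 stays between 0.76 and 0.92, Tpm4 drops to 0.59 without WT replicate 3 and to 0.06 in its other cluster, and Cnn2, Tagln3 and Tpm3 lie on both sides of 0, as does Tagln2 through its other cluster at -0.38.

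The 5 genes nearest to Cnn3 and the 5 nearest to Tpm4 over the 6 arrays were outside the families. Likeness was the root mean square distance between 2 genes over the 6 arrays after each gene's mean was subtracted, in log2 units. The nearest to Cnn3 were Ube2n, a ubiquitin-conjugating enzyme, Ccl3, a chemokine, Mthfsl, Atl3, a GTPase that shapes the endoplasmic reticulum, and Cd52, a lymphocyte surface glycoprotein, at distances of 0.14 to 0.19. The Cnn3 pattern itself had a size of 0.43 on this scale. The nearest member was Tpm1 at 0.40, at rank 1667 among tested genes, and Tpm4 was at 0.53, at rank 7632. The distance depends on the size of a pattern as well as its shape, so a flat gene would lie at 0.43 from Cnn3. Tagln2, which changed little over the arrays, was at 0.40, at rank 1741. The ranks of Tpm1 and Tpm4 therefore do not compare shapes alone.

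Tpm4 had other neighbours than Cnn3. Nearest were Ugcg, which encodes glucosylceramide synthase, Spaca1, a sperm acrosome membrane gene, Sde2, Tmem69 and Golga7, a cofactor of protein palmitoylation, at 0.25 to 0.29, where the Tpm4 pattern had a size of 0.73. The member nearest to Tpm4 was Cnn3, at rank 272 among tested genes by distance to Tpm4. Each of these 5 genes had its lowest value on WT replicate 3, as Tpm4 had, with Spaca1 at 6.91 and Sde2 at 6.89 there. Ugcg read 10.20, 9.22 and 9.16 on Chrm1-/- arrays and 9.25, 8.85 and 7.78 on WT arrays, so its groups overlapped. Likeness over 6 arrays that differ by genotype follows the same contrast that chose the members and carries no test.

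**Figure D4:**
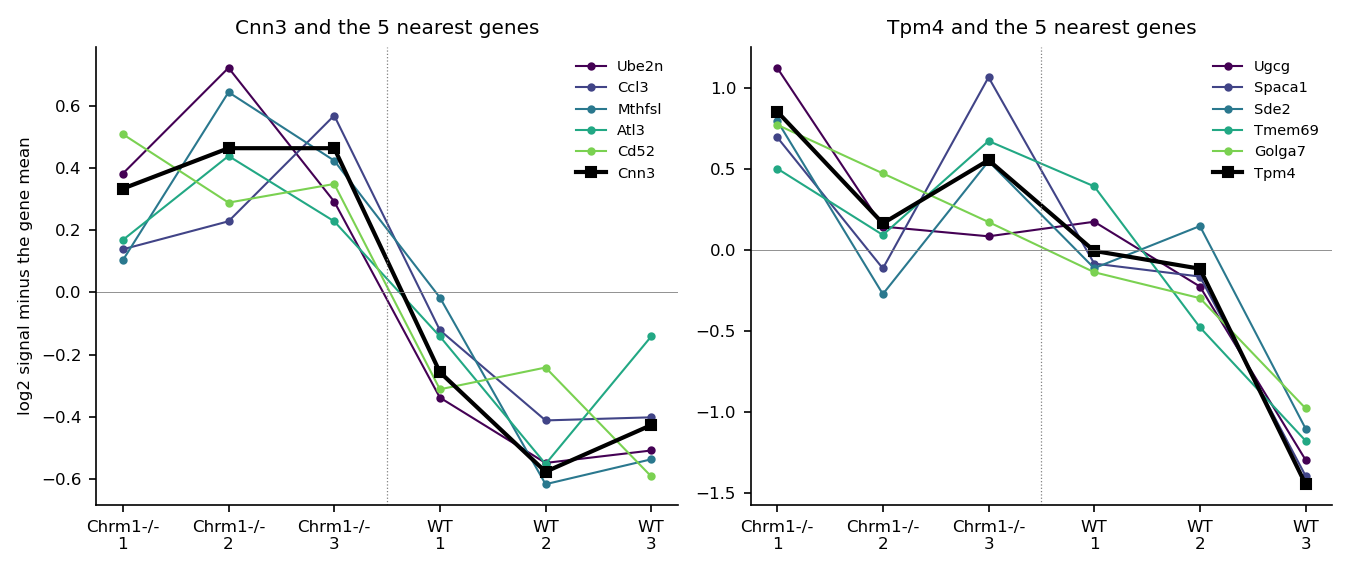
Log2 signal minus the gene's mean over the 6 arrays, with the Chrm1-/- arrays left of the dotted line and the WT arrays right of it, for Cnn3 and its 5 nearest genes and for Tpm4 and its 5 nearest genes. The Cnn3 set lies above 0 on all Chrm1-/- arrays and below 0 on all WT arrays, while the Tpm4 set is set apart by its low values on WT replicate 3.

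Genes that work with these families on the actin filament did not pass the test. Of 12 filament-end genes, among them the tropomodulins that cap tropomyosin-coated filaments, 6 were tested, 4 higher and 2 lower in Chrm1-/- with a median difference of 0.03, against 0.0 over all tested genes. Of 23 genes of troponin, caldesmon and myosin regulation 16 were tested, 8 higher and 8 lower, with a median of 0.01. Tnni2, a fast muscle troponin, differed by 0.58 ± 0.25 (SE), and Rhob, a small GTPase of actin signalling, by 0.24 ± 0.11 (SE). At an unadjusted p under 0.05 limma called 0 genes of both lists.

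Of 26 genes for actins, non-muscle myosin and crosslinkers 19 were tested, 11 higher and 8 lower, with a median of 0.02. Myl6, the essential light chain of non-muscle and smooth muscle myosin, read 7.38, 7.81 and 8.71 on Chrm1-/- arrays and 9.10, 8.25 and 9.54 on WT arrays. Its difference of -0.997 ± 0.448 (SE) was about as wide as that of Tpm4 in the other direction, and its groups overlapped through Chrm1-/- replicate 3. Without that array the same list had 2 genes with an unadjusted p under 0.05 instead of 0. The cytoplasmic actin genes hardly differed, with Actg1 at 12.00 ± 0.04 in Chrm1-/- and 11.98 ± 0.00 in WT and Actb at 8.37 ± 0.12 in Chrm1-/- and 8.28 ± 0.05 in WT (SD, n = 3 each). Myh10, a non-muscle myosin heavy chain, differed by 0.32 ± 0.17 (SE) and Actn1, an actin crosslinker, by 0.26 ± 0.15 (SE).

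SRF and its cofactors and other targets outside these families were tested in 20 of 27 cases, 14 higher and 6 lower, with a median of 0.04 and 0 genes with an unadjusted p under 0.05 in limma. Srf itself read 7.11, 7.57 and 8.38 on Chrm1-/- arrays and 7.64, 7.63 and 7.73 on WT arrays. The Chrm1-/- arrays lay on both sides of the WT arrays, and the difference was 0.02 ± 0.31 (SE). Csrp2, a LIM protein of smooth muscle, differed by 0.49 ± 0.38 (SE) and Fosb, an immediate early gene, by -0.27 ± 0.15 (SE).

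Markers of cells that make much calponin and tropomyosin were set beside the members. Smooth muscle and pericyte markers, 12 of 12 on the array and 7 tested, had 5 higher and 2 lower and a mean log2 signal between 6.75 and 6.84 on Chrm1-/- arrays and between 6.69 and 6.82 on WT arrays. Acta2, smooth muscle actin, averaged 7.97 ± 0.21 in Chrm1-/- and 7.94 ± 0.04 in WT, and Myh11, smooth muscle myosin, 7.15 ± 0.08 in Chrm1-/- and 7.18 ± 0.10 in WT (SD, n = 3 each). Stromal and endothelial markers, 14 of 14 on the array and 6 tested, averaged 6.72 to 6.83 on Chrm1-/- arrays and 6.71 to 6.75 on WT arrays. In limma 0 genes of both lists had an unadjusted p under 0.05, and the groups' ranges overlapped.

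Megakaryocyte and platelet markers, 13 of 16 on the array and 8 tested, averaged 7.05 to 7.32 on Chrm1-/- arrays and 7.15 to 7.18 on WT arrays, with 4 higher and 4 lower. F2rl2, a thrombin receptor family gene, differed by 1.13 ± 0.36 (SE). Pf4, a platelet chemokine, differed by -0.88 ± 0.37 (SE) and Treml1 by -0.35 ± 0.18 (SE). The groups of F2rl2 and Treml1 did not overlap, in opposite directions, as for 5.39% of all genes in either direction. Treml1 read at most 7.89 on Chrm1-/- arrays and at least 7.94 on WT arrays. Pf4 read 8.20, 9.44 and 8.06 on Chrm1-/- arrays and 9.54, 9.46 and 9.33 on WT arrays. F2rl2 read 8.98, 8.65 and 7.57 on Chrm1-/- arrays and 7.16, 7.45 and 7.21 on WT arrays. Within Chrm1-/- Pf4 was lower on the arrays with the higher Tpm4, replicates 1 and 3. There F2rl2 was highest on replicate 1, as Tpm4 was, but lowest on replicate 3, where Tpm4 was above replicate 2. Within WT both Pf4 and Tpm4 were lowest on replicate 3, though Pf4 spanned only 9.33 to 9.54. F2rl2 was lowest in WT on replicate 1, where Tpm4 was highest, though F2rl2 spanned only 7.16 to 7.45 there. Treml1 and the other markers of the list were not compared with Tpm4 array by array. Whether the share of these cells had a part in the Tpm4 values was not tested.

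Blood lineage and stem cell markers gave few calls. Monocyte and granulocyte markers, 14 of 14 on the array and 8 tested, had 1 higher and 7 lower and a median of -0.25, and averaged 7.42 to 7.74 on Chrm1-/- arrays and 7.59 to 7.86 on WT arrays. Cd68, a macrophage gene, read 8.47, 8.16 and 8.19 on Chrm1-/- arrays and between 8.79 and 10.25 on WT arrays, a difference of -1.07 ± 0.39 (SE) with its highest value on WT replicate 3. Erythroid markers, 7 of 12 on the array and all tested, averaged 9.07 to 9.27 on Chrm1-/- arrays and 8.77 to 9.32 on WT arrays, lowest on WT replicate 3. HSC and progenitor markers, 12 of 13 on the array and all tested, had 7 higher and 5 lower and averaged 9.19 to 9.40 on Chrm1-/- arrays and 9.26 to 9.31 on WT arrays, with Procr, a receptor used to purify HSCs, at -0.25 ± 0.10 (SE). Lymphoid markers, 10 of 12 on the array and 5 tested, averaged 7.44 to 7.58 on Chrm1-/- arrays and 7.37 to 7.60 on WT arrays. The part of these lists in the Cnn3 and Tpm4 values was not tested.

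Over the 11 lists, 109 genes besides the members were tested, and limma gave 3 of them an unadjusted p under 0.05, F2rl2 higher and Cd68 and Procr lower. That is 2.75% of them, where all tested genes had 2.99%, made up of 1.40% higher and 1.60% lower. On leaving out each array in turn the unadjusted p stayed under 0.05 in 2 of 6 fits for F2rl2, in 3 of 6 for Cd68 and in 0 of 6 for Procr. None of the 109 passed the adjusted threshold in limma.

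**Figure D5:**
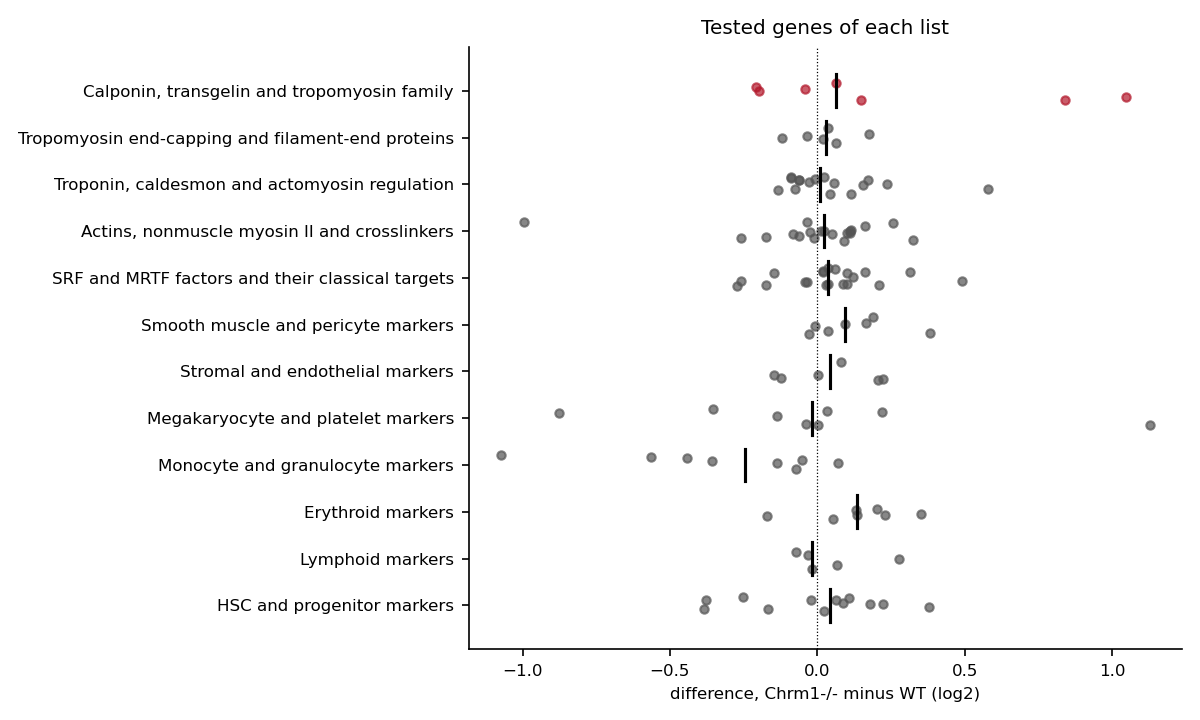
Log2 difference, Chrm1-/- minus WT, of every tested gene in the calponin, transgelin and tropomyosin families (red, top) and in 11 lists of actin filament genes and cell type markers (grey); vertical bars are list medians and heights within a list are spread only to separate points. Cnn3 and Tpm4 are the 2 red points far to the right, and all list medians but that of the monocyte and granulocyte markers, -0.25, and the erythroid markers, 0.13, lie within 0.10 of 0.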

How the data were processed

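HSC RNA from 3 Chrm1-/- and 3 WT samples was hybridised to Affymetrix mouse gene ST arrays after NuGEN amplification, and the authors ran the chips through Affymetrix software, per the series design text. The sources used here give neither its version nor the summarization and normalization. The deposited table names no scale, so its values were read as log2 signals from their range, 3.02 to 13.67, and were used as they are. Depth is not defined for arrays, and their number limits the precision. Nothing says that replicates are separate mice, so p-values reflect the spread between these arrays, possibly a technical one.

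The platform annotation gives a single gene symbol to 23521 of 41345 transcript clusters. The cluster with the highest mean was kept per gene, and clusters with several symbols (1814) or none (16010) were left out. Genes at or above the median signal were compared as Chrm1-/- minus WT with limma 3.58.1 (lmFit, eBayes) in R 4.3.3 as a two-sided test, adjusted over 11094 genes by Benjamini-Hochberg; SEs are limma's. The code of the fit was checked on simulated data with independent noise in each value. Which changes 3 arrays per group could detect is not read from that check. Python 3.11.15 and pandas 2.3.3 joined the tables and searched the promoters.

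Members and lists were chosen with earlier results of these data known. The text names all members, the 8 fixed genes Actb, Actg1, Acta2, Myh11, Srf, Kit, Cd34 and Pf4, up to 4 genes of smallest unadjusted p per list, and the 5 tested genes nearest to Cnn3 and to Tpm4, leaving out predicted genes, small RNAs and receptor gene segments. Listed genes without a cluster of their own were not analysed here. Alternatives covered the signal filter, normalization, the choice of cluster, moderation, the replicate number as a block and leaving out each array.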

Additional observations from a re-analysis of the deposited data

How the results depend on the processing

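The 10 members' differences were taken under 15 other settings, giving 150 values. The signal filters, the moderation settings and the replicate block leave a member's difference unchanged by construction. The choice of cluster can change it only for members with several clusters. Many values were therefore fixed in advance, and their share says nothing about stability. With these included, 147 of 150 values moved by less than the member's pooled SD. The 3 that moved further came from the choice of cluster: Tpm4 at 0.06 in its dimmer cluster, a setting chosen after seeing the data, and Tagln2 at -0.38 there and at -0.16 as the mean of its clusters. Cnn3 ran from 0.76 to 0.92. The number of members higher in Chrm1-/- ran from 4 to 6 and their median difference from -0.05 to 0.09. Genes past the adjusted p in limma numbered 0 with all arrays and 0 to 1 on leaving out 1 array (Snord49a without Chrm1-/- replicate 3, Gdpd3 without WT replicate 1); without moderation there was 1, Apmap, and these 3 genes are named after their values were seen. Genes with an unadjusted p under 0.05 numbered 567 with no filter on dim genes and 169 with a filter at the 75th percentile, where more and fewer genes were tested, and 335 to 522 on leaving out 1 array, the highest without WT replicate 3. Those in the companion lists numbered 3 with all arrays, 5 with no filter and 3 to 5 on leaving out 1 array, the highest without Chrm1-/- replicate 3; the cause was not tested. With the replicate number as a replicate block, 396 genes had an unadjusted p under 0.05 and 0 passed the adjusted p. Deviations of same-numbered arrays correlated at -0.03, 0.01 and -0.01, and those of other-numbered arrays at -0.02 to 0.03. The labels do not say whether equal numbers pair samples, and these values cannot decide it. Allowing 1 mismatch, a CArG box was in 4 of the 10 member promoters and in 18.6% of all. Because 3 arrays per group limit the precision, differences near the SEs given cannot be told from 0. A difference above its SE is not thereby told from 0 either, and those of Cnn3 and Tpm4 chose the families.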
